A study of Nothobranchius furzeri with 16 samples.

Results

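Adipose tissue of 4 old and 4 young turquoise killifish that had all gone 72 h without food was compared, 8 of the 16 samples in the series and all 18606 of its genes. The killifish (Nothobranchius furzeri) is a short-lived annual fish, and the strain is the wild-type laboratory line GRZ-AD. The 8 fish were chosen by their labels alone, as the columns for old and for young fish fasted for 72 h. Old fish were 18 weeks and young fish 7 weeks of age by the series description. The paper gives each age as a range of weeks that includes these values. All were males per the paper and housed singly. The samples are labelled as biological replicates and are called fish here, although the sources used here do not say whether a library held tissue of 1 animal. The other 8 fish of the series, 4 old and 4 young, had been fed again for 24 h after the same fast and serve here as a second, separate set of animals of the same ages. No group was fed throughout, so the comparison is of age within the fasted state.

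Adipose tissue stores lipid as triglyceride and releases fatty acids when food is withheld, and in many vertebrates it is also a site of immune cells and of hormone secretion. Fasting is sensed in part through the lysosome. There TFEB, a transcription factor held in the cytosol under nutrient-rich conditions, moves to the nucleus and switches on genes of lysosomes and autophagy. Transforming growth factor beta (TGFβ) signals through receptor kinases to the transducers SMAD2 and SMAD3, which enter the nucleus with the shared partner SMAD4.

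The deposited table gives a normalized signal for 18606 fish genes under Ensembl gene identifiers. A table of 38438 killifish genes with symbols was searched for these identifiers, with 0 matches. Names could be given to tfeb, smad2, smad3b and smad4, from the z-scores that the study published for the young fish, and the 4 other genes described singly are given by identifier. The tissue label could therefore not be checked against marker genes, and pathways and cell types were not analysed here. In whole tissue, fewer cells of a type and less RNA per cell cannot be told apart.

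The signal of all fish genes summed to 19.0 to 21.3 M units (M, a factor of 1e6) in old fasted fish and to 24.5 to 28.3 M in young fasted fish. The median gene was at nearly the same signal in all 8, 157 to 163 units in old fish against 155 to 160 units in young fish. Depth, estimated from the step between low values, came to 32.6 to 38.2 M reads for the 4 old fasted fish, against 40.1 to 50.9 M for the 4 young fasted fish. The groups did not overlap, so age and depth cannot be told apart. The estimate is rough, since the low values that came within 0.1 of a whole number of steps were 64.0% to 77.7% of those in each fish. The level of the ERCC spike-ins, synthetic RNAs in the libraries, was lower in old fish by a log2 difference of -0.33 (exact permutation p = 0.0286, the smallest that 4 fish against 4 allow). Their share of the column total was 4.21% ± 0.281 in old and 4.10% ± 0.410 in young fish (SD, n = 4 each), with overlap. Young fasted replicate 4 stood apart from its group, with a mean correlation of 0.9634 to the other young fasted fish against 0.9752 to 0.9764 for those 3. The number of genes called, the abundance classes and the calls shared with refed fish are also given without it, and the other counts rest on all 8 fish.

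Old and young fasted adipose tissue differed in 1777 genes, in both directions and mostly by less than 2-fold. Of 18606 genes, 1777 (9.55%) passed an adjusted p under 0.05 in limma's test on log2(signal + 1), with 1037 (5.57%) higher and 740 (3.98%) lower in old fish. On the deposited scale the median log2 difference over all genes was -0.002. Where this median lies depends on the scaling, as given below, so it is no finding about age. A share of 86.0% of all genes, 15999 of them, lay within 0.5 of 0 on the log2 scale. Among genes called higher the median log2 difference was 0.53, and among genes called lower it was -0.53. A difference of 1 or more on the log2 scale was reached by 124 of the genes called higher (0.666% of all genes) and by 112 of those called lower (0.602%). At 2 or more there were 4 genes higher and 17 lower, and called genes spanned -3.20 to 2.74. At an unadjusted p under 0.05 the number was 4951 genes (26.6%).

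The groups of 4 fish could be set apart completely in 3705 genes (19.9%). All 4 old fish lay above all 4 young fish in 1991 of them (10.7%) and below in 1714 (9.21%). Of the genes called by limma, 956 of 1037 higher genes and 675 of 740 lower genes had no overlap between the ages. No gene was listed at 0 in every fish of one age and above 0 in every fish of the other.

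**Figure D1:**
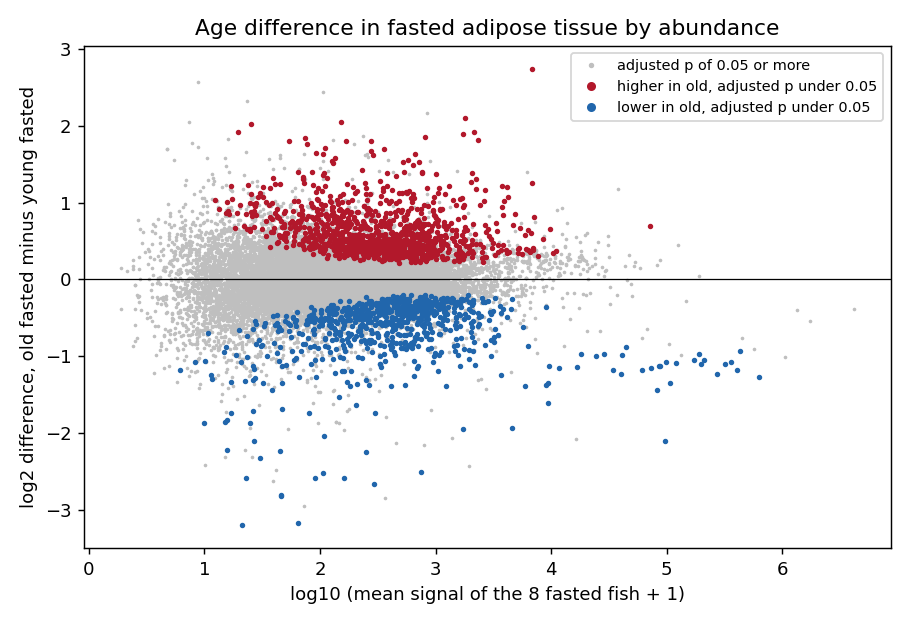
Log2 difference between old fasted and young fasted fish (vertical axis) against the log10 mean signal of the 8 fasted fish (horizontal axis), with 1 point per gene. Red points (1037 genes) were higher and blue points (740 genes) lower in old fish at an adjusted p under 0.05, and the blue points continue into the most abundant genes at a log2 difference near -1.

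These counts rest on the scale. On the deposited scale 58.4% of called genes were higher in old fish. After each fish was scaled to the same total, 8628 genes (46.4%) were higher and 147 (0.79%) lower, so that 98.3% of called genes were higher, and the median gene moved by 0.39 on the log2 scale. Scaling to the spike-in level gave 6768 genes higher (36.4%) and 161 lower (0.865%), which is 97.7% higher, with a shift of the median gene of 0.32. When the 50 most abundant genes were left out of the total, 912 genes (4.9%) were higher and 807 (4.34%) lower, and the median gene moved by -0.03. A rescaling moves the log2 differences of all genes by nearly the same amount, so a difference relative to the median gene is nearly the same on each scale by construction.

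In old fasted tissue the most abundant transcripts took a smaller share of the signal. Abundance here is the mean signal over the 16 fish, not known to be corrected for gene length. The 16 include the fasted and refed fish compared below, so a gene high at a single age could enter the list through that age. The share, its p-value and the counts for these genes are therefore a description and not independent of the choice. The 50 most abundant genes held 57.9%, 58.6%, 53.5% and 56.8% of the fish-gene total in old fasted fish 1 to 4, against 66.6%, 68.6%, 68.2% and 68.2% in young fasted fish 1 to 4. The old fish all lay below the young fish, by 11.2 percentage points on average (exact permutation p = 0.0286). Outside these 50 genes the totals overlapped, at 8.86 ± 0.204 M units in old and 8.69 ± 0.345 M in young fish (SD, n = 4 each, exact permutation p = 0.486). The lower total signal of old fish was thus carried by these 50 genes on the deposited scale.

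Of the 50 genes, 38 had a log2 difference below 0 and the median was -0.86, beside -0.002 over all genes. Limma called 22 lower and 1 higher, beside 3.98% and 5.57% of all genes. Scaled to the total it called 22 lower and 13 higher, beside 0.79% and 46.4% of all genes, with a median of -0.46. Scaled to the spike-in level it called 17 lower and 8 higher, beside 0.865% and 36.4% of all genes. The most abundant gene had 3.48, 3.55, 2.99 and 4.10 M units in old fasted fish, against 5.47, 6.47, 4.21 and 2.98 M in young fasted fish. Its groups overlapped through young fish 4, which had the lowest value of all 8, and it was not called (log2 difference -0.39, standard error 0.55, limma adjusted p = 0.683). The second gene in rank had 1.40, 1.45, 1.34 and 1.47 M units in old fish, against 1.91, 2.05, 2.15 and 2.16 M in young fish. It had no overlap, but its log2 difference of -0.54 did not pass (standard error 0.35, limma adjusted p = 0.345). The fourth most abundant gene showed the other pattern in young fish 4. It had 0.802, 0.791, 0.576 and 0.611 M units in old fish and 1.08, 1.2, 1.5 and 1.9 M in young fish. All old fish were below all young fish here, with young fish 4 the highest, yet the adjusted p stayed above the threshold (log2 difference -1.01, standard error 0.35, limma adjusted p = 0.0808). The fifth gene in rank passed it, at 0.448, 0.402, 0.288 and 0.320 M units in old fish against 0.634, 0.782, 0.932 and 1.19 M in young fish (log2 difference -1.26, standard error 0.32, limma adjusted p = 0.0238). In refed fish limma called 32 of the 50 genes lower in old animals, beside 15.1% of all genes. The median log2 difference of the 50 was -1.73 there, beside 0.04 over all genes.

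**Figure D2:**
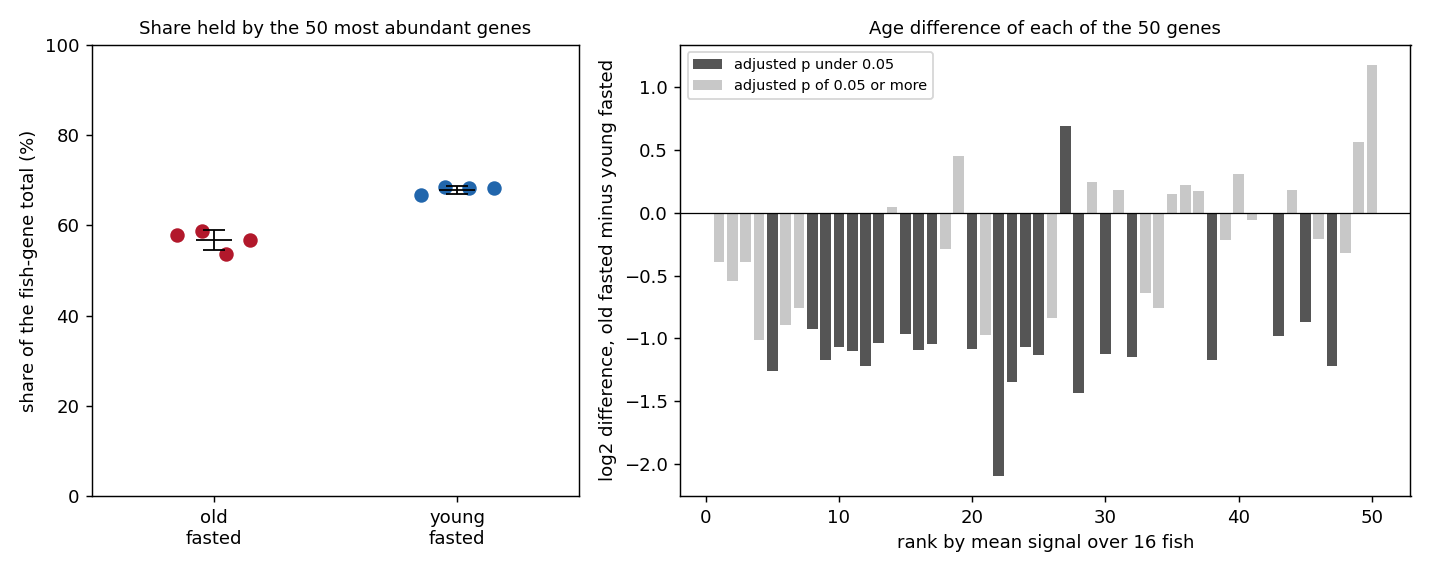
Left, the share of the fish-gene total held by the 50 most abundant genes, in percent, for 4 old and 4 young fasted fish (points), with mean and SD. Right, the log2 difference between old and young fasted fish of each of the 50 genes by rank, where 22 of the dark bars point down and 1 points up.

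Among the most abundant genes lower calls outnumbered higher ones, while from 100 to 10000 units higher calls were the more frequent. Of the 139 genes with a mean of at least 10000 units over the 16 fish, 29 (20.9%) were lower and 4 (2.88%) higher in old fasted fish. This holds for the calls only, since 58 of the 139 had a log2 difference below 0 and the class median was 0.11. The ages had no overlap in 35 genes with old fish lower and in 35 with old fish higher, beside 9.21% and 10.7% of all genes. In the class of 1000 to 10000 units, 121 of 1520 genes (7.96%) were lower and 190 (12.5%) higher, or 57 and 88 without young fish 4. In the class of 100 to 1000 units, 462 of 10076 (4.59%) were lower and 717 (7.12%) higher, or 205 and 357 without that fish. In that of 10 to 100 units 122 of 6225 (1.96%) were lower and 126 (2.02%) higher, or 52 and 63 without it. Under 10 units 6 of 646 genes (0.929%) were lower and 0 higher, or 3 and 0 without it. With the 50 most abundant genes left out of the total, 130 genes of the 10 to 100 unit class were lower and 109 higher. Scaled to the total, 29 of the 139 genes were again lower, and scaled to the spike-in level 24 were, while 78 and 70 of them were then higher. Over all 18606 genes 332 were lower and 511 higher without young fish 4. Whether the shares of the classes differ beyond error was not tested.

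The 29 abundant genes that were lower had log2 differences of -2.10 to -0.87 and a median of -1.12. As a description of genes chosen for being lower, their summed signal was 3.21, 2.95, 2.11 and 2.33 M units in old fasted fish 1 to 4, against 4.32, 5.27, 6.25 and 7.59 M in young fasted fish 1 to 4. Young fish 4, the fish that stood apart from its group, had the highest value in 27 of the 29. Without it 15 of the 139 genes (10.8%) were called lower and 3 (2.16%) higher. Among the 50 most abundant genes 8 were then called lower, with a median log2 difference of -0.74. Calls over all 18606 genes fell too, from 740 to 332 lower and from 1037 to 511 higher. The part of this fish in the result beyond these values was not tested. All 29 genes were also called lower in old refed than in young refed fish, beside 15.1% of all genes. Their log2 differences there were -2.92 to -0.83, with a median of -2.06. The class was chosen by a mean that includes the refed fish, so this is a description and not independent of the choice.

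The 4 genes given by identifier are the 2 with the largest and the 2 with the smallest log2 difference among 812 higher and 577 lower genes that were called, had a mean of at least 100 units in the fasted fish and showed no overlap. They were chosen for their size, so their fold changes describe the extremes of that filtered set and not a typical difference. ENSNFUG00015001509 had 8437, 11606, 10409 and 16516 units in old fasted fish, against 1653, 1755, 2918 and 1001 units in young fasted fish. Every old fish was thus well above every young fish, and the log2 difference was 2.74 (standard error 0.48, limma adjusted p = 0.00553), or 6.67-fold. It stayed called in each of 32 other settings (limma adjusted p = 0.000366 to 0.0379). In the refed fish the same gene had 14932, 8809, 6232 and 15478 units in old and 2463, 938, 6880 and 2125 units in young fish. There the groups overlapped through 1 young fish, with a log2 difference of 2.14 (limma adjusted p = 0.00405, exact permutation p = 0.0571).

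ENSNFUG00015019469 had 233, 186, 268 and 288 units in old fasted fish, against 48.2, 70.3, 73.3 and 44.0 units in young fasted fish. The lowest old fish was above the highest young fish, at a log2 difference of 2.05 (standard error 0.41, limma adjusted p = 0.00998). It was called in 31 of 32 other settings. The call was lost without both old fish 1 and young fish 4 (limma adjusted p = 0.0683, range over all settings 0.000684 to 0.0683). In refed fish its log2 difference of 1.07 did not pass (limma adjusted p = 0.0669). The difference between the age effects in the fasted and the refed state, 0.98, had a 95% confidence interval of -0.27 to 2.22. This gene reached the mean of 100 units through the old fasted fish (mean 244, against 58.9 in young). A smaller difference in refed fish was thus favoured by the choice.

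Of the lower genes, ENSNFUG00015021982 had 34.8, 262, 42.4 and 74.1 units in old fasted fish, against 573, 380, 444 and 505 units in young fasted fish. Old fish 2 was several-fold above the other old fish but still below each young fish. The log2 difference was -2.66 (standard error 0.62, limma adjusted p = 0.0185). The call was lost without old fish 1 (adjusted p = 0.0561), old fish 3 (0.0582) or young fish 1 (0.0514) in limma, with a range of 0.00661 to 0.114 over 32 settings. In refed fish it was lower in old animals too, with 64.8, 100, 114 and 53.3 units against 297, 1828, 932 and 2799 units in young animals (log2 difference -3.77, limma adjusted p = 0.000484).

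ENSNFUG00015007012 had 38.7, 32.7, 23.8 and 73.3 units in old fasted fish, against 547, 219, 245 and 106 units in young fasted fish. The young fish spread over a wide range, and the highest old fish was close to the lowest young fish. Its log2 difference was -2.58 (standard error 0.45, limma adjusted p = 0.00533), and it was called in each of 31 other settings. Refed fish of both ages had low levels, 14.1, 17.4, 33.4 and 24.7 units in old and 21.3, 50.1, 20.3 and 27.7 units in young fish, and the ages overlapped. The age difference in the fasted state minus that in the refed state was -2.21 on the log2 scale (95% confidence interval -3.55 to -0.87, limma adjusted p = 0.0308), as for 2632 genes (14.1%) in the whole table. It had been chosen for its size in the fasted state and reached the mean of 100 units through the young fasted fish, so the value is a description and no evidence that feeding mattered.

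None of the 4 genes that the study named passed limma's test between old and young fasted fish. Values of tfeb (ENSNFUG00015019917) were 299, 281, 338 and 355 units in old fasted fish, against 235, 268, 236 and 176 units in young fasted fish. All old fish were above all young fish (exact permutation p = 0.0286), as in 10.7% of all genes, and the log2 difference of 0.49 had a standard error of 0.18 and a limma adjusted p of 0.102. Fitted on the 8 fasted fish alone it passed (adjusted p = 0.048 from limma). It also passed scaled to the total (0.88, limma adjusted p = 0.00178) and to the spike-in level (0.81, limma adjusted p = 0.00283), where the median gene had also moved up. Without young fish 4, which had the lowest tfeb value of the 8, the log2 difference was 0.37 (limma adjusted p = 0.257). The refed fish gave a call for tfeb, with 345, 298, 195 and 310 units in old and 125, 201, 171 and 138 units in young refed fish (higher in old fish by a log2 difference of 0.84, limma adjusted p = 0.00319). The difference between the states, -0.36, did not pass (95% confidence interval -0.90 to 0.19).

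The 3 SMAD genes had log2 differences below 0 on the deposited scale and above 0 when fish were scaled to the total or to the spike-in level, and none passed on any of the 3. For smad2 (ENSNFUG00015023992), a receptor-activated transducer, the values were 277, 342, 318 and 339 units in old fasted fish and 364, 378, 391 and 369 units in young fasted fish. The old fish were all below the young fish (exact permutation p = 0.0286), as in 9.21% of all genes, with a log2 difference of -0.24 (standard error 0.08, limma adjusted p = 0.0793). The shared partner smad4 (ENSNFUG00015017545) had 168, 181, 167 and 178 units in old and 227, 216, 207 and 198 units in young fasted fish. There was again no overlap, and the log2 difference was -0.29 (standard error 0.14, limma adjusted p = 0.205). For smad3b (ENSNFUG00015007897), the other receptor-activated transducer, the groups overlapped, at 391, 378, 332 and 515 units in old and 428, 553, 497 and 365 units in young fasted fish (log2 difference -0.19, standard error 0.17, limma adjusted p = 0.499). Under those 2 scalings the log2 differences were 0.04 to 0.21. Fitted on the 8 fasted fish alone, smad4 came close to the threshold (limma adjusted p = 0.0511). In that fit smad2 had a limma adjusted p of 0.0949 and smad3b one of 0.456. In refed fish none of the 3 passed either, with log2 differences of 0.06 for smad2, 0.29 for smad3b and -0.10 for smad4. Their intervals on the deposited scale were -0.41 to -0.06 for smad2, -0.58 to 0.01 for smad4 and -0.55 to 0.17 for smad3b.

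**Figure D3:**
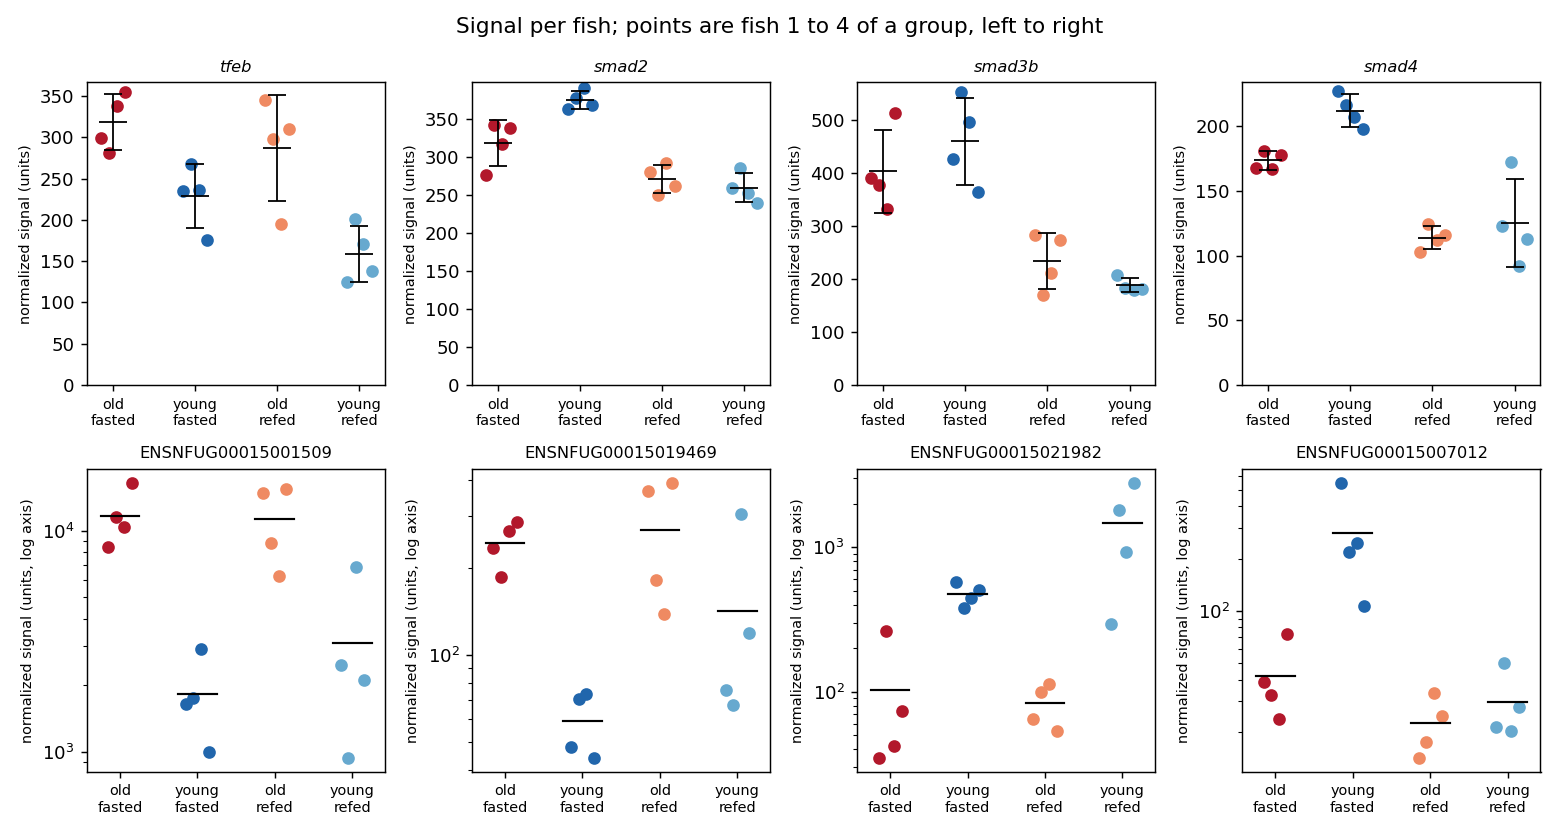
Normalized signal of each fish (points) in old fasted, young fasted, old refed and young refed fish. The upper row shows the 4 genes the study named, with mean and SD on a linear axis from 0, and the lower row the 4 called genes with the most extreme differences among those with a fasted mean of at least 100 units and no overlap, with the mean on a log axis. All 4 genes of the lower row have no overlap between old and young fasted fish.

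The refed fish share no animal with the fasted fish. They show which differences between old and young were present in a second set of animals of the same ages. Estimated depth was again split by age, with old refed animals at 20.3 to 36.1 M reads and young refed ones at 42.2 to 51.5 M. Their total signal was split too, at 14.3 to 17.0 M units for the old animals against 21.0 to 26.65 M. Neither set separates age from depth, and whether calls shared by both states follow age or depth was not tested. In refed fish 5229 genes (28.1%) were called, 2424 (13%) higher and 2805 (15.1%) lower in old animals. This split also turned with the scale, to 13178 higher and 352 lower scaled to the total (97.4% higher) and to 6560 higher and 846 lower scaled to the spike-in level (88.6% higher). The differences were also wider there. The SD of the log2 age difference across genes with a mean of at least 100 units was 0.352 in fasted and 0.525 in refed fish, over 11735 genes.

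Of the 1037 genes called higher in old fasted fish, 345 (33.3%) were also higher in old refed fish, beside 13% of all genes, and 138 (13.3%) were lower there, beside 15.1% of all genes. These 345 were 14.2% of the genes higher in old refed fish. Of the 740 genes called lower, 330 (44.6%) were also lower in old refed fish, beside 15.1% of all genes, and 15 (2.03%) were higher, beside 13%. The 330 were 11.8% of the genes lower in old refed fish. The median log2 age difference in refed fish was 0.12 for the first set and -0.28 for the second, beside 0.04 over all genes. With a separate fit for each set of 8 fish, 342 of 1093 genes (31.3%) were higher and 299 of 836 (35.8%) lower at both states, beside 8.82% and 12.1% of all genes. In those fits 60 of the 1093 (5.49%) were lower and 7 of the 836 (0.837%) higher in old refed fish. Genes called in the fasted state were therefore called in the same direction in the refed state more often than genes at large, although 554 of the 1037 and 395 of the 740 were not called in refed fish.

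The share rose with the size of the difference among genes called higher, but not steadily among genes called lower. Whether it depends on size was not tested. Among genes higher in old fasted fish, 79 of the 124 with a log2 difference of 1 or more (63.7%) were also higher in refed fish and 2 were lower. From 0.5 to 1 this was 196 of 445 (44.0%) with 32 lower, and below 0.5 it was 70 of 468 (15%) with 104 (22.2%) lower. Over all genes the shares called in refed fish were 13% higher and 15.1% lower, and whether the small differences depart from them was not tested. Among genes lower in old fasted fish, 56 of the 112 at -1 or less (50%) were also lower in refed fish and 1 was higher. Between -1 and -0.5 this was 169 of 288 (58.7%) with 5 higher, and above -0.5 it was 105 of 340 (30.9%) with 9 higher. Scaled to the total, where the median log2 age difference in refed fish was 0.64, 85 of 213 genes lower in old fasted fish (39.9%) were also lower in refed fish, beside 1.65% of all genes, and 30 (14.1%) were higher, beside 65.6%, in separate fits of 8 fish. Of 9420 genes then higher in old fasted fish, 6774 (71.9%) were also higher in refed fish, beside 65.6% of all genes, which is close to that background.

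**Figure D4:**
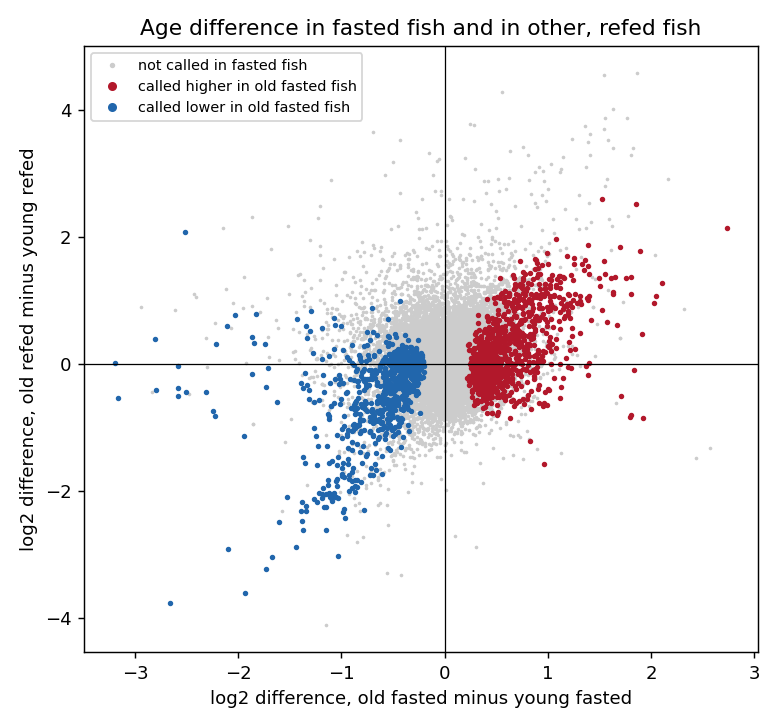
Log2 difference between old and young fish in the refed state (vertical axis) against that in the fasted state (horizontal axis), with 1 point per gene. No fish contributes to both axes. Blue points, lower in old fasted fish, lie below 0 on the vertical axis in 547 of 740 genes (73.9%), beside 45.7% of all genes. Red points lie above it in 629 of 1037 genes (60.7%), beside 54.3% of all genes.

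Old and young fasted fish varied to a like degree within their groups. Over 11735 genes with a mean of at least 100 units, the median SD of log2 signal between fish was 0.138 in old and 0.142 in young fasted fish, and the SD was larger in old fish for 49.2% of genes. Without young fish 4 the median SD of the young group was 0.113. On the first principal component of the 8 fasted fish, which held 34.5% of the variance, the old fish lay at 9.73 to 34.9 and the young fish at -58.7 to -7.34, with young fish 4 at the far end. On the second component (19.4%) old fish 1 at 26.7 and young fish 4 at 30.6 lay above the other 6, which ranged from -30.7 to 13.1.

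The number of genes called changed when single fish were left out. Leaving out a fish also makes its group smaller. Whether the changes reflect the particular fish or the smaller group was not tested. Without old fasted replicate 1, 3 or 4 the number fell to 878, 740 and 768 genes, and without young fasted replicate 1, 3 or 4 to 807, 1158 and 843. Without old replicate 2 it was 1774 and without young replicate 2 it was 1222. Without both old fish 1 and young fish 4, 319 genes were called, 169 higher and 150 lower, and 301 of them were among the 1777. Of the genes called higher in old fish, old fish 1 had the highest value of the 8 in 441 (42.5%) and old fish 4 in 415 (40.0%). Of the genes called lower, young fish 4 had the highest value in 380 (51.4%). Without young fish 4, 193 of 511 higher genes (37.8%) were also higher in refed fish, beside 13.6% of all genes. Another 67 (13.1%) were lower there, beside 15.2%. Of the 332 lower genes, 157 (47.3%) were also lower in refed fish, beside 15.2% of all genes, and 10 (3.01%) were higher, beside 13.6%.

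**Figure D5:**
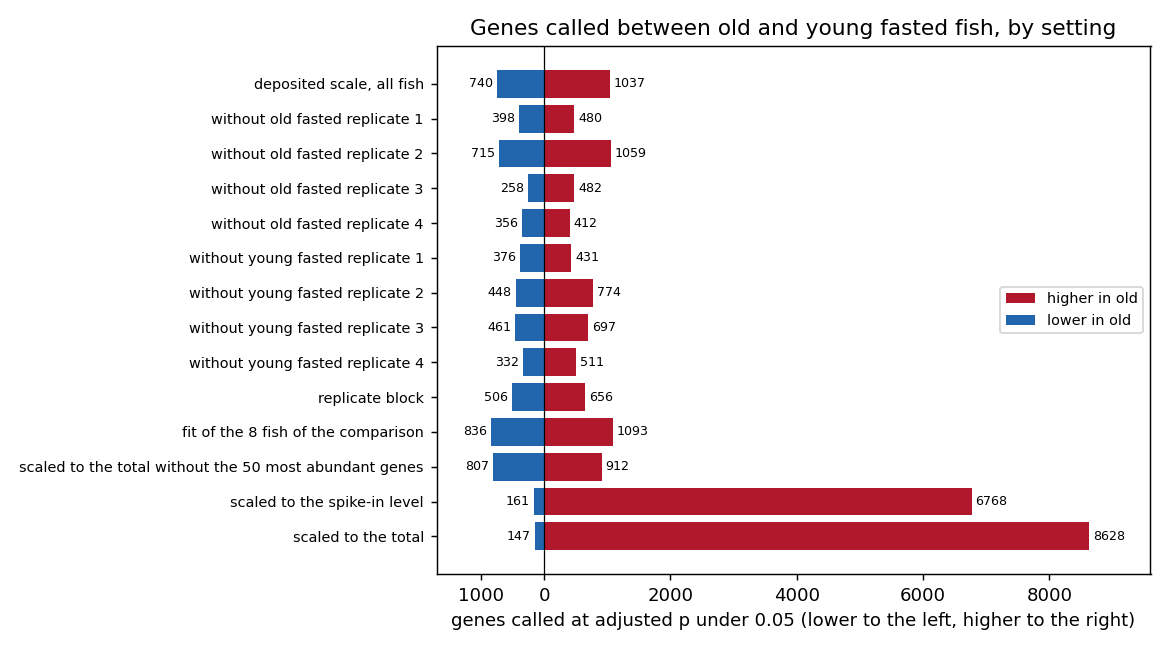
Number of genes called between old and young fasted fish in each setting, with genes higher in old fish to the right (red) and genes lower in old fish to the left (blue). Counts on the deposited scale lie between 740 and 1929 genes for the settings shown, and scaling to the total or to the spike-in level gives 8775 and 6929, nearly all higher.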

How the data were processed

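RNA of adipose tissue was sequenced in 16 samples after removal of ribosomal RNA. Reads of rRNA and tRNA were discarded, the rest were assigned to Nfu_20140520 by the authors with kallisto (version 0.45.0), and pairwise tests were theirs with DESeq2 (version 1.24.0). What was deposited is a signal that the authors had normalized, with no negative and few whole values. Its scaling is not stated in the paper or the labels. All 16 columns were matched to samples by title, with 0 columns unused.

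A model of 4 group means over 16 fish was fitted to log2(signal + 1) of 18606 genes by limma 3.58.1 in R 4.3.3, using eBayes with a trend and Benjamini-Hochberg adjustment. Of the 74 ERCC rows, which were left out of the tests, the 42 averaging 100 units or more gave the spike-in level. The exact permutation tests were two-sided, over 70 splits. Plots used matplotlib 3.10.9 in Python 3.11.15. The fit was tested on simulated data. RNA extraction was done together for all fish, and a sequencing batch is not named in the paper or the labels. Limma's p-values set a difference against the spread between samples within groups, pooled over all 16 fish and adjusted by eBayes. Exact permutation p-values place the difference of means among the 70 splits.

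Rows of tfeb and the smad genes were those closest to 8 published z-scores each, after scaling each fish by a factor taken from the remaining 3. The largest difference was 1.11e-05, and at least 0.116 for the next row. Named genes were these 4 and, by identifier, the 2 largest and 2 smallest called differences with a mean of at least 100 units and no overlap. Members, lists and rules were chosen with earlier results of these data known. Gene lists and cell type markers need symbols and were not used. Alternatives were other pseudocounts (0.1 and 5), low-value filters, scalings, thresholds, variance settings, a replicate block, 8-fish fits and each fish left out. Sets of rows with identical values (268 rows in 32 sets) hold 2 called genes and no named one.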

Additional observations from a re-analysis of the deposited data

Results flagged for a closer look

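Young fasted replicate 4 had a mean correlation of 0.9634 with the other 3 young fasted fish, whose own means were 0.9752 to 0.9764. The gap to the nearest fish was 0.908 of the range of the group, above the limit of 0.829 for 4 samples. Of 34 groups of 4 values looked at in this way, this was the 1 that passed. Chance alone gives about 1 in 20, so 1 pass in 34 is no more than chance would give. This count concerns the number of passes and does not decide whether this fish differs from its group. The 4 mean correlations also share pairs of fish and are not independent, so the limit is only a rough guide.

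For ENSNFUG00015007012 the age differences in the fasted and the refed state stood apart. The log2 difference between old and young fish was -2.58 in the fasted and -0.38 in the refed state, and the difference of -2.208 between them passed limma's test (adjusted p = 0.0308). The gene was chosen for its size in the fasted state and reached the mean of 100 units through the young fasted fish, so a smaller difference in refed fish was favoured by the choice. It has no value under the filter of a mean of 100 units over all 16 fish.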

How the results depend on the processing

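Of the named genes, tfeb did not pass on the deposited scale with 16 fish but did in 3 of 32 other settings, and ENSNFUG00015021982 lost its call in 5 of 32. The signs of smad2, smad3b and smad4 turned when fish were scaled to the total (0.16, 0.208 and 0.112) or to the spike-in level (0.086, 0.134 and 0.038), without passing. The number of genes called in fasted fish (1777) became 8775 scaled to the total, 6929 scaled to the spike-in level, 303 at an adjusted p under 0.01, and 236 with an added log2 difference of at least 1. It was 740 to 1925 with 1 of the 16 fish left out and 319 without both old fish 1 and young fish 4. For refed fish (5229) it was 13530 scaled to the total, 2904 at 0.01 and 1028 with the added size, and 4143 to 5372 with 1 fish left out. For the difference between the states (2632) it was 1399, 1440 scaled to the spike-in level, 740 and 508, and 1683 to 2758 with 1 fish left out. Genes called in the same direction at both states (675) were 6859 in separate fits scaled to the total and 350 without young fasted replicate 4. The cause of these changes was not tested beyond the shift of the median gene. Pseudocounts, low-value filters, merged rows and the variance settings kept each count within 1.5 times.

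The replicate number as a block gave 1162 genes in fasted fish, 1137 of them among the 1777. The numbers do not pair the fish. Deviations of same-numbered old and young fasted fish had correlations of -0.197 to -0.063, and no fish correlated best with its own number. Depth per fish is approximate, and differences in genes of low signal may not be detectable.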
